A study of Mus musculus with 12 samples.

Results

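The miRNAs described here are both arms of miR-142a and miR-223 (mmu-miR-142a-3p, mmu-miR-142a-5p, mmu-miR-223-3p, and mmu-miR-223-5p, written below without the species prefix), 4 of the 1881 mouse miRNAs on the arrays, matched by their exact names in the scanner files. The RNA came from microglial exosomes of the cerebrum of male C57BL/6 mice, 12 weeks of age when purchased, and was hybridized to 12 one-color Agilent arrays, 3 in each of 4 groups. The rmTBI groups were sampled at 3, 14, and 42 days post-injury (DPI) after closed-head impact, given 4 times at 48-h intervals. The sham mice went through the same handling and anesthesia but received no impact, and their day of sampling was not stated in the sources used here. Age at sampling was not stated either, and the days post-injury add to it. All mice were perfused with PBS, and the vesicles were captured with an antibody to CD11b, a surface integrin of microglia that monocytes, macrophages, and neutrophils also carry, so the capture does not separate microglial vesicles from those of other myeloid cells. Whether an array held 1 animal or several was not stated in the sources used here, and p values refer to the spread between arrays, which may be technical.

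miR-142a and miR-223 are known as miRNAs of blood-forming cells. Mir142 is transcribed throughout the hematopoietic lineages and, in the brain, chiefly in microglia and other resident or infiltrating immune cells. Mir223 is strongest in granulocytes and monocytes, where it is induced during myeloid differentiation and restrains neutrophil activity and inflammasome signaling. Each gene makes a hairpin whose arms are cut into a 5p and a 3p miRNA, and an arm represses mRNAs chiefly through pairing of its seed, bases 2 to 8, with sites in them. A miRNA array reads each arm with its own probes, so the arms were measured independently.

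The hairpins are shown to place the arms that the probes read, with the 5p and then the 3p arm in capitals (RefSeq, GRCm38.p6). Mir142 lies on the plus strand at chr11:87756864-87756927, and Mir223 on the plus strand at chrX:96242817-96242926. 
Mir142: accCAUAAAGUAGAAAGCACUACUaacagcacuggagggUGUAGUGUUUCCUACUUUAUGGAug
Mir223: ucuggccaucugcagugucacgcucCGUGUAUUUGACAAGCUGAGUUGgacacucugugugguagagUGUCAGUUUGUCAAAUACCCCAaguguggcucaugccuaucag
In this annotation, Mir142 overlapped 1 other gene, Mir142b, a miRNA gene that lies on the minus strand, and Mir223 overlapped 1 lncRNA gene, F630028O10Rik. All 4 mature sequences were found in the RefSeq table, and the seed is in capitals in each.
miR-142a-5p: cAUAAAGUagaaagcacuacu
miR-142a-3p: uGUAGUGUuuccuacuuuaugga
miR-223-5p: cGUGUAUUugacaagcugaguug
miR-223-3p: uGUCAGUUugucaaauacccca
The 4 seeds differed from each other, and none was shared by any of the 1607 other array miRNAs with a mature sequence in the table. By edit distance the nearest sequence to miR-142a-3p was miR-190a-5p (8 edits, above background on 0 of 12 arrays), and the nearest to miR-223-3p was miR-204-5p (9 edits, above background on 12 of 12 arrays). miR-142b, which is read from the strand opposite to miR-142a-3p, was above background on 0 of 12 arrays, with an intensity below 0 on all 12.

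The arrays differed in brightness by group, and this touches every value below. The 75th percentile of the intensities of the 230 miRNAs above background on all arrays ran from 217 to 348 in the sham group, was 401 to 619 on the 3 DPI arrays and 588 to 1173 on the 14 DPI arrays, and reached 1385 to 2936 by 42 DPI. The number of miRNAs above background followed the same order, from 243 to 285 on the sham arrays to 490 to 579 on the 42 DPI arrays. The slide was not balanced either, since the 3 sham arrays shared slide 1 with 1 array of 3 DPI, and the other 8 injury arrays lay on slide 2. No slide holds both sham and 14 or 42 DPI arrays, so a slide term in those comparisons rests on the 3 DPI arrays of both slides, whereas 3 DPI can be compared with 14 and 42 DPI within slide 2. With slide as a block, 0 of 486 miRNAs were called by limma at 3, 14, or 42 DPI against sham (1, 42, and 108 at an unadjusted p under 0.05).

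The 3p arms of both miRNAs were above background on some arrays, while the 5p arms were above background on none of the 12. An arm counted as above background where the scanner software flagged over 0.5 of the kept spots of any of its probes as well above background. miR-142a-3p met this on 0 of 3 arrays in sham and again 0 of 3 at 3 DPI, then on 2 of 3 arrays at 14 DPI and 3 of 3 at 42 DPI. miR-223-3p met it on 1 of 3 sham arrays (replicate 3) and on all 9 injury arrays. The scanner software's own call differed for 1 array of miR-142a-3p (3 DPI replicate 2, called detected) and for 2 sham arrays of miR-223-3p, which it called detected on all 12. The exosomes are labeled microglial. miR-142a-3p was thus not above background on any sham or 3 DPI array, and miR-223-3p was above background on 10 of 12. Of 10 other miRNAs linked to myeloid cells and inflammation, 2 to 4 were above background on each sham array and 6 or 7 on each 42 DPI array. Of these 10, miR-342-3p and miR-21a-5p were above background on all 12 arrays, whereas miR-147-3p, miR-511-3p, and miR-511-5p were above background on 0 of 12. For comparison, 9 or 10 of 10 neuronal miRNAs, a list that leaves out miR-124-3p, were above background on each array.

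Before scaling between arrays, the signal of miR-142a-3p was low and even in the sham group and highest at 42 DPI. Its summed probe intensities were 9.36, 8.20, and 9.07 on the sham arrays, and 10.3, 16.8, and 13.0 at 3 DPI. They were 11.97, 37.4, and 51.0 at 14 DPI, and 126, 71.4, and 81.9 at 42 DPI. The lowest 42 DPI array was thus above the highest array of every other group, and 14 DPI replicate 1 lay among the 3 DPI arrays. Since no sham array was above background, the unscaled intensity at 42 DPI is given as a bound, 5.88-fold that of sham. It takes the lowest signal above background on each sham array as a ceiling, which is not a strict limit.

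miR-223-3p brightened in the same order before scaling. Its intensities were 18.7, 18.2, and 21.9 on the sham arrays, and 27.4, 40.3, and 33.7 at 3 DPI. They were 30.9, 71.4, and 73.3 at 14 DPI, and 178, 101, and 112 at 42 DPI. The sham arrays were below all the others, the 3 and 14 DPI arrays overlapped, and the 42 DPI arrays were above all the rest. The unscaled mean at 42 DPI was 6.46-fold that of sham, of whose 3 arrays 1 was above background.

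**Figure D1:**
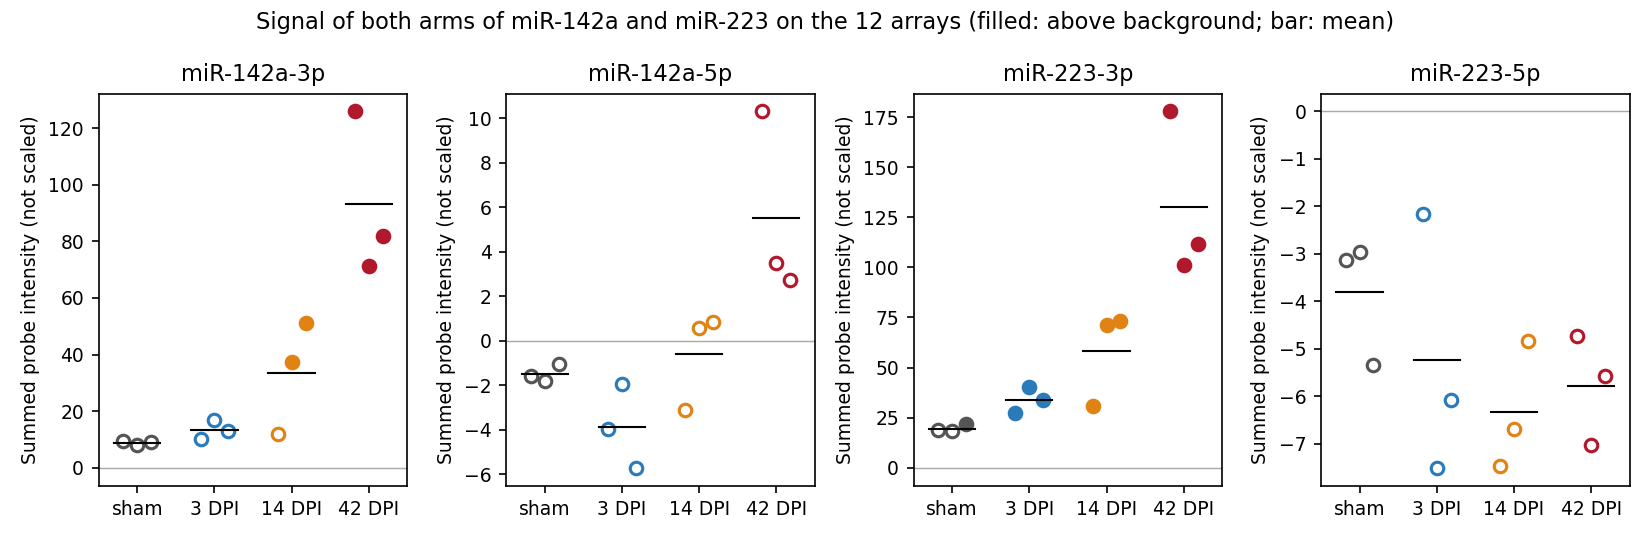
Summed probe intensity (background-subtracted, not scaled between arrays) of miR-142a-3p, miR-142a-5p, miR-223-3p, and miR-223-5p on the 12 arrays, with a separate vertical axis for each panel; each point is an array, filled where the miRNA was above background, and the bar is the mean of 3 arrays. Both 3p arms were brightest on the 42 DPI arrays (71.4 to 126 for miR-142a-3p and 101 to 178 for miR-223-3p), and no point of a 5p arm is filled.

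Much of the brightening was common to the array, so the levels below are relative to it. Without scaling, the median log2 change against sham over all 486 tested miRNAs was 0.69, 1.38, and 2.02 at 3, 14, and 42 DPI. At 42 DPI without scaling, miR-142a-3p stood 0.65 and miR-223-3p 0.67 above that median on the log2 scale. In that setting signals under a common floor, such as those of miR-142a-3p in sham, were set to the floor. The median and the distances depend on this, so neither distance shows an excess over the common brightening. After scaling, the distances from the median at 42 DPI against sham were 0.62 for miR-142a-3p and -0.033 for miR-223-3p. A lower amount of exosomal RNA on an array and less of a miRNA per exosome cannot be told apart in these data.

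After each array was divided by its own 75th percentile, miR-142a-3p had measured levels at 42 DPI and on 2 arrays of 14 DPI, and on the sham and 3 DPI arrays its values were those of a signal not above background. The log2 scaled levels were -4.93, -4.73, and -5.26 on the sham arrays, and -5.29, -5.21, and -5.12 at 3 DPI. At 14 DPI they were -5.42, -4.97, and -4.45, the first of these being the floor of the scale, and at 42 DPI -4.54, -4.28, and -4.50. The values of the 42 DPI arrays did not overlap with those of sham or 3 DPI, but the lowest signal above background on the sham arrays was -4.64 to -3.66, which on 2 of the 3 sham arrays is above all 42 DPI levels, and 42 DPI is not shown to be higher than sham. The 14 DPI arrays spread over nearly the whole range. Group means were -4.97 ± 0.27 (SD, n = 3) in sham, -5.20 ± 0.088 at 3 DPI, -4.95 ± 0.49 at 14 DPI, and -4.44 ± 0.14 at 42 DPI.

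Of the 6 comparisons between groups, miR-142a-3p passed the test in 1, 42 DPI against 3 DPI. It was among the 486 miRNAs tested only because it was above background throughout the 42 DPI group, the group tested as high here, and among all 1881 miRNAs with no filter the call was lost (limma adjusted p = 0.16). It was 0.76 ± 0.23 (SE) higher on the log2 scale at 42 DPI (95% interval 0.24 to 1.28; limma, Benjamini-Hochberg adjusted p = 0.032). Since no 3 DPI array was above background, the fold is given as a bound, 1.49-fold higher at 42 DPI. That bound is a ratio of means and not a strict minimum. It leaves out the spread between arrays, and the fit's 95% interval of the fold was 1.18 to 2.43. On 3 DPI replicate 2 the bound used the miRNA's own level of -5.21, which exceeded that array's lowest signal above background (-5.51). In this comparison 202 of 486 tested miRNAs were called, 41.6%, and 68.9% of all tested had groups that did not overlap, so a call here was common. Within slide 2 (3 arrays at 42 DPI and 2 at 3 DPI) the bound was 1.61-fold, and the log2 difference of 0.72 did not pass the test (limma adjusted p = 0.11), nor did it with slide as a block (adjusted p = 0.073). Without any 1 of 5 of these 6 arrays the adjusted p was 0.077 to 0.091, and the call held without 3 DPI replicate 2. Under normexp background correction with an offset of 50 the value was -0.26 (adjusted p = 0.12), which is 0.17 above the median of all tested miRNAs under that setting (-0.43), and miR-142a-3p was at the floor on the 14 and 42 DPI arrays.

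Against sham, miR-142a-3p did not pass the test at any time point. The log2 change was -0.23 ± 0.23 (SE) at 3 DPI (limma adjusted p = 1), where 0 of 486 miRNAs were called (0%). At 3 DPI, 10 miRNAs had an unadjusted p under 0.05 by limma and 2 by the methods' t-test, which gave 0 after adjustment. The miR-142a-3p change was 0.023 ± 0.23 at 14 DPI (limma adjusted p = 0.98), where 18 were called (3.7%, and 4 when blocked by replicate number). At 42 DPI it was 0.53 ± 0.23 (95% interval 0.011 to 1.05; adjusted p = 0.093), where 174 were called (35.8%) and 70.4% of the miRNAs tested had groups that did not overlap. No fold is given for 42 DPI against sham, because the signal there, set against the lowest signal above background on the dimmer sham arrays, gives a ratio under 1. The call at 42 DPI against sham depended on the processing: it was made in 7 of 16 alternative settings upward, with adjusted p from 4.4e-07 to 0.044, and not with slide as a block (0.40, adjusted p = 0.53). Of these 7, no scaling, the percentile over all miRNAs, and quantile normalization moved the median of all tested miRNAs by 2.02, 0.54, and 0.36, and miR-142a-3p stood 0.65, 0.77, and 1.29 above it. Under normexp the value was -0.79 (adjusted p = 0.00029), 0.076 above the median of all tested miRNAs there (-0.86).

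**Figure D2:**
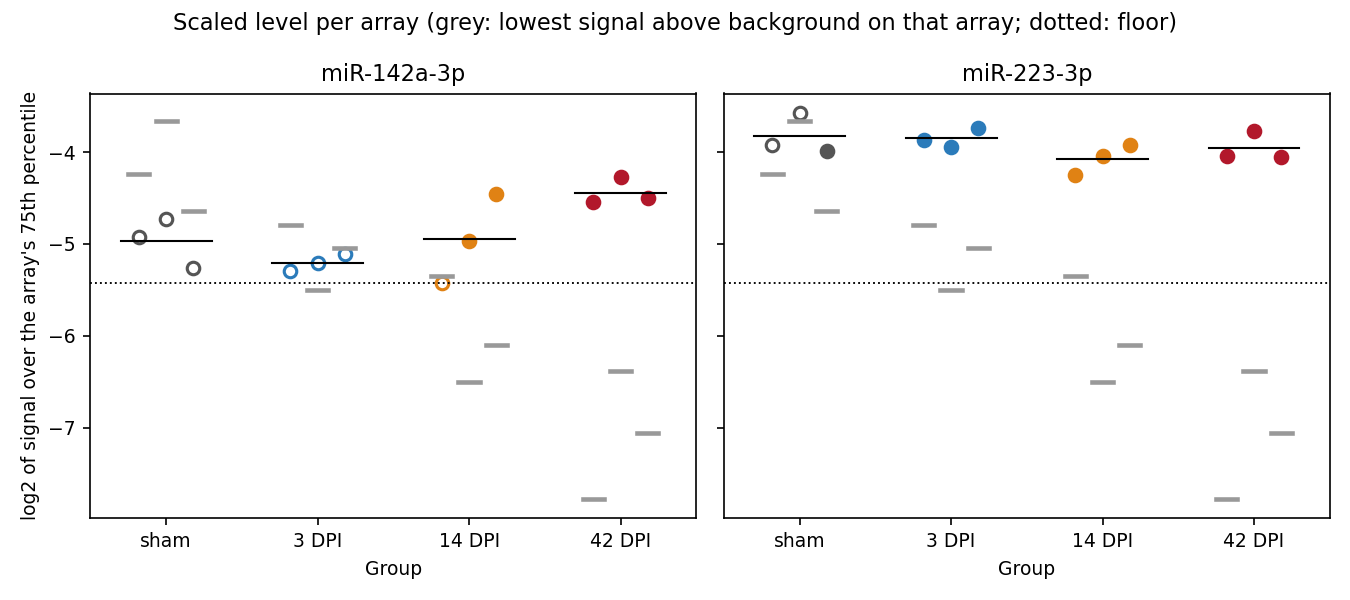
Level of miR-142a-3p and miR-223-3p on each array, as log2 of the signal over the array's 75th percentile, by group; filled points were above background, the black bar is the group mean, each grey tick is the lowest signal above background on that array, and the dotted line is the floor. The grey ticks fall from -3.66 to -4.64 on the sham arrays to -6.39 to -7.77 on the 42 DPI arrays, and the open points of miR-142a-3p in sham lie under their ticks.

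No rank is given to sham and 3 DPI, where miR-142a-3p was not above background on any array. The difference between the levels at 14 and 42 DPI did not pass the test, which with 3 arrays each does not show equal levels. The difference between 42 and 14 DPI was 0.51 ± 0.23 (SE; limma adjusted p = 0.40), in a comparison with 0 of 486 miRNAs called (0%; 55 at an unadjusted p under 0.05, and 0 by the methods' t-test after adjustment). The difference between 14 and 3 DPI was 0.26 ± 0.23 (adjusted p = 0.55), with 6 miRNAs called (1.23%).

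miR-223-3p showed close scaled levels in the 4 groups. The log2 scaled levels were -3.93, -3.57, and -3.99 on the sham arrays, and -3.87, -3.94, and -3.74 at 3 DPI. They were -4.25, -4.04, and -3.93 at 14 DPI, and -4.05, -3.77, and -4.05 at 42 DPI. All 4 groups overlapped, and the highest value, on sham replicate 2, was on an array where the miRNA was not above background. Group means were -3.83 ± 0.23 (SD, n = 3) in sham, -3.85 ± 0.10 at 3 DPI, -4.07 ± 0.16 at 14 DPI, and -3.96 ± 0.16 at 42 DPI.

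No comparison of miR-223-3p passed the test. Against sham the log2 change was -0.022 at 3 DPI (95% interval -0.33 to 0.29; limma adjusted p = 1), -0.24 at 14 DPI (-0.56 to 0.070; adjusted p = 0.34), and -0.13 at 42 DPI (-0.44 to 0.18; adjusted p = 0.48; 0.68 with slide as a block). As a fold, the interval at 42 DPI ran from 0.737 to 1.14 under this processing. It treats the sham values as measured, although 1 of the 3 sham arrays was above background, and the sham arrays lay on another slide. It therefore sets no firm limit on the fold. Between time points the adjusted p was 0.41 to 0.59, and the largest difference was -0.22 ± 0.14 (SE) at 14 against 3 DPI. At 42 DPI against sham the value was 0.21 with the brightest probe alone and 0.83 in the deposited table, where the median of all miRNAs was 0.071. It was -1.65 with the software's total signal and -0.91 with normexp (limma adjusted p = 0.023 and 0.00012), where the median of all tested miRNAs was 0 and -0.86. It was 0.52 with quantile normalization, 0.65 with a 75th percentile taken over every miRNA, and 2.69 without scaling (adjusted p = 1.4e-05), settings that moved the median of all tested miRNAs to 0.36, 0.54, and 2.02, so relative to that median miR-223-3p stood at 0.16, 0.11, and 0.67, beside -0.033 with the processing used here.

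**Figure D3:**
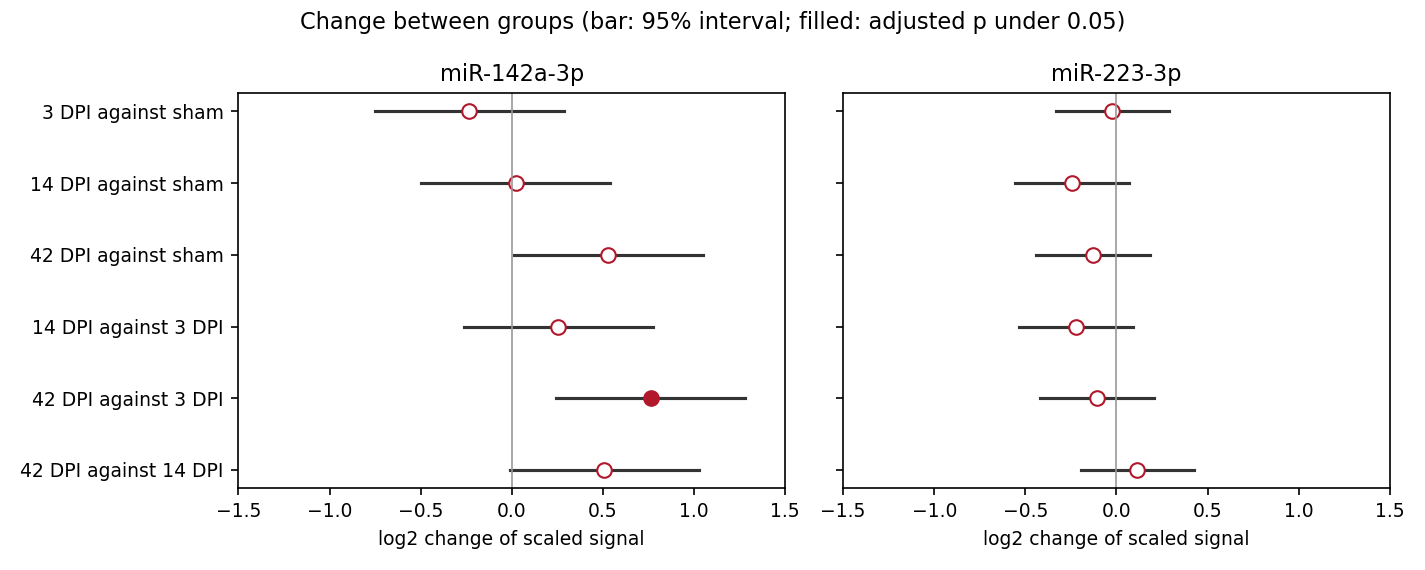
Log2 change of scaled signal in the 6 comparisons between groups for miR-142a-3p and miR-223-3p, with 95% intervals from the limma fit over 12 arrays; filled points passed an adjusted p of 0.05. The single filled point is miR-142a-3p at 42 against 3 DPI (0.76; not above background at 3 DPI), and every interval of miR-223-3p spans 0.

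Side by side from 3 to 42 DPI, miR-142a-3p differed by 0.76, from a group in which it was not above background, and miR-223-3p by -0.11 (95% interval -0.42 to 0.21) on the log2 scale, and the root mean square difference between their centered levels over the 12 arrays was 0.36. The difference between the 2 miRNAs was not tested.

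Each 3p arm was read by 2 probes of 15 spots, and both probes of miR-142a-3p came above background on the same 3 arrays of 42 DPI. On every spot of the 42 DPI arrays both were well above background, and neither was above background on any sham or 3 DPI array. At 14 DPI probe A_54_P2308 was above background on 2 arrays and A_54_P3691 on 1. In that order, they differed by 0.71 and 0.24 on the log2 scaled scale from sham to 42 DPI, where only the groups of A_54_P3691 overlapped. From sham to 14 DPI the differences were 0.23 and -0.55, and from 3 to 42 DPI 0.75 and 0.80. From 14 to 42 DPI they were 0.48 and 0.79, where only the groups of A_54_P2308 overlapped. Single probes were not tested. On the sham arrays no spot of either probe was well above background, and the SD over the spots of a probe was 41.4% to 73.4% of its mean, against 4.87% to 14.4% at 42 DPI.

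The probes of miR-223-3p did not give the same values. From sham to 42 DPI probe A_54_P2630 differed by 0.12 and probe A_54_P2629 by -0.69 on the log2 scaled scale. From 3 to 42 DPI the differences were 0.19 and -0.74, and neither probe's groups overlapped in that comparison; single probes were not tested. Probe A_54_P2629 was above background on 0 sham arrays and 1 array of 3 DPI, whereas A_54_P2630 was above background on 1 sham array and 3 arrays of 3 DPI. The values of A_54_P2629 in those groups are thus mostly of a signal not above background, and whether the probes differed in direction is not shown.

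**Figure D4:**
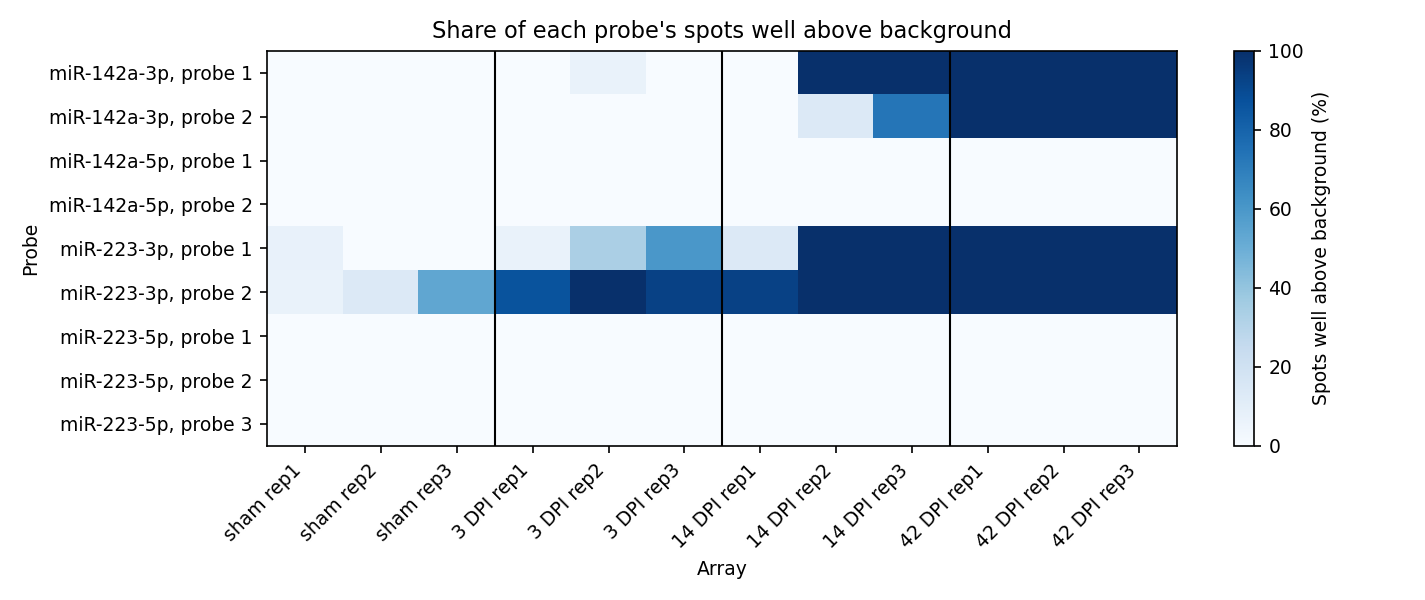
Share of the spots of each probe that were well above background, in percent, for the 9 probes of the 4 arms (rows) on the 12 arrays (columns), with vertical lines between the groups. At 42 DPI all spots of both 3p arms were above background, the second miR-223-3p probe was over 50% on sham replicate 3 and on all injury arrays, and no spot of a 5p probe was above background on any array.

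The 5p arms gave no level in any group. miR-142a-5p had intensities of -1.81 to -1.03 on the sham arrays and -5.70 to -1.94 on those of 3 DPI. Its range was -3.12 to 0.853 at 14 DPI, whereas 42 DPI gave 2.73 to 10.3, so 7 of 12 arrays were below 0. miR-223-5p, read by 3 probes, ran from -7.51 to -2.15 and was below 0 on all 12 arrays. Neither arm was tested, and the data allow no ratio of the arms, since the signals of different probes are not on a common scale. An arm that is not above background here may still be present below what these arrays detect.

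Of 10 other miRNAs linked to myeloid cells and inflammation, 6 were tested. At 42 DPI against sham 2 of the 6 were called higher, 0 were called lower, and 4 did not pass the test. Over all 486 tested miRNAs 70 were called higher and 104 lower (35.8% in either direction). The median log2 change was 0.68 for the 6, beside -0.094 over all tested. miR-146a-5p and miR-150-5p, above background on no sham array, were among the 6 only through groups in which they were high. The median thus depends in part on the filter and describes the list without testing it. miR-21a-5p, which rises in many activated and injured tissues, went from -0.55 ± 0.32 (SD, n = 3) in sham to 0.32 ± 0.089 at 42 DPI, a log2 change of 0.86 (limma adjusted p = 0.046; 0.22 with slide as a block and 0.066 with a replicate block). miR-150-5p, best known from mature lymphocytes, was above background on no sham or 3 DPI array and on all 3 arrays at 14 and at 42 DPI. Relative to sham its bound was 1.33-fold for 14 DPI (limma adjusted p = 0.034). For 42 DPI the bound was 1.40-fold (limma adjusted p = 0.0094, and 0.10 with slide as a block). The adjusted p values are of its log2 levels, those of sham and 3 DPI not above background, and not of the bounds. miR-150-5p was tested only because it was above background throughout 14 and 42 DPI, the groups called higher. It was the only 1 of the 6 called at 14 DPI, where 3.7% of all tested miRNAs were called, and that call was lost with slide as a block, with a replicate block, in a fit of both groups alone, and by the methods' t-test (adjusted p = 0.47, 0.064, 0.19, and 0.37). At 42 against 3 DPI the same 2 passed. miR-21a-5p differed by 0.87 (limma adjusted p = 0.040, 0.051 with slide as a block, 0.059 with a replicate block, 0.060 by the methods' t-test, and 0.090 within slide 2). miR-150-5p had a bound of 2.28-fold and a log2 change of 1.32 ± 0.29 (SE, limma adjusted p = 0.016, and 0.024 with slide as a block).

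The remaining members of that list did not pass the test. miR-146a-5p, a feedback inhibitor of NF-kB signaling, differed by 0.68 at 42 DPI against sham (limma adjusted p = 0.052). miR-146a-5p was above background on 0 of 3 sham arrays and was tested only because it was above background throughout 42 DPI. Its relative miR-146b-5p differed by 0.68 (adjusted p = 0.11). miR-342-3p, which is abundant in microglia and was above background on 12 of 12 arrays, differed by 0.31 (adjusted p = 0.53) and miR-342-5p by 0.25 (adjusted p = 0.44). miR-155-5p, an inducer of inflammatory responses in macrophages, was above background on 1 of 12 arrays, at 42 DPI, and miR-147-3p, miR-511-3p, and miR-511-5p, the last 2 from an intron of the macrophage mannose receptor gene, on 0 of 12.

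miRNAs of other cell types were present on the same arrays. The 10 neuronal miRNAs summed to 2081% to 2865% of an array's 75th percentile in sham. The corresponding ranges were 2060% to 3143% for 3 DPI, 2108% to 4038% for 14 DPI, and 3576% to 4077% for 42 DPI, with 9 or 10 of the 10 above background on every array. At 42 DPI against sham 3 of these 10 were called higher and 0 lower (miR-128-3p by 1.05, miR-137-3p by 0.59, and miR-218-5p by 0.95 on the log2 scale; limma adjusted p = 0.020, 0.015, and 0.026), with a median of 0.44. Over all 486 tested miRNAs 70 were called higher and 104 lower. Of the 10, miR-124-5p was above background on no sham array and was tested only through 14 and 42 DPI. Of the 4 oligodendrocyte miRNAs 3 were called higher, beside the same counts over all miRNAs (miR-219a-5p by 1.20, miR-219a-2-3p by 1.23, and miR-338-5p; limma adjusted p = 0.015, 0.0080, and 0.047). miR-338-5p was above background on no sham array and at the floor on all sham and 3 DPI arrays, so no fold is given. It was tested only because it was above background throughout 42 DPI, the group called higher, so its call rests on the floor and the filter. The median of the 4 was 1.02, and their summed level was 181% to 251% in sham and 415% to 446% at 42 DPI. With slide as a block, none of the 9 miRNAs of all lists called at 42 DPI against sham passed (limma adjusted p = 0.10 to 0.62). The part of other cell types in the values of miR-142a-3p was not tested.

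No marker of blood vessels or red cells passed the test upward at 42 DPI. Neither of the 2 endothelial miRNAs was called at 42 DPI against sham (miR-126a-3p by 0.33, limma adjusted p = 0.28), and their summed level was 101% to 141% in sham and 138% to 162% at 42 DPI. Of the 5 erythrocyte miRNAs 1 was tested, miR-486a-5p, which was called lower at 42 than at 3 DPI (-0.96, adjusted p = 0.013) and lower than sham (adjusted p = 0.016), although no sham array was above background for it and no fold is given. miR-451a, the main red cell miRNA, was above background on 0 sham arrays and on 2 of 3 in each injury group, and miR-144-3p, miR-144-5p, and miR-486a-3p were above background on 0 of 12 arrays. The summed level of the 5 was 8.69% to 12.9% in sham. It was 7.07% to 17.8% for the 3 DPI group and 4.66% to 8.50% for the 42 DPI group.

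**Figure D5:**
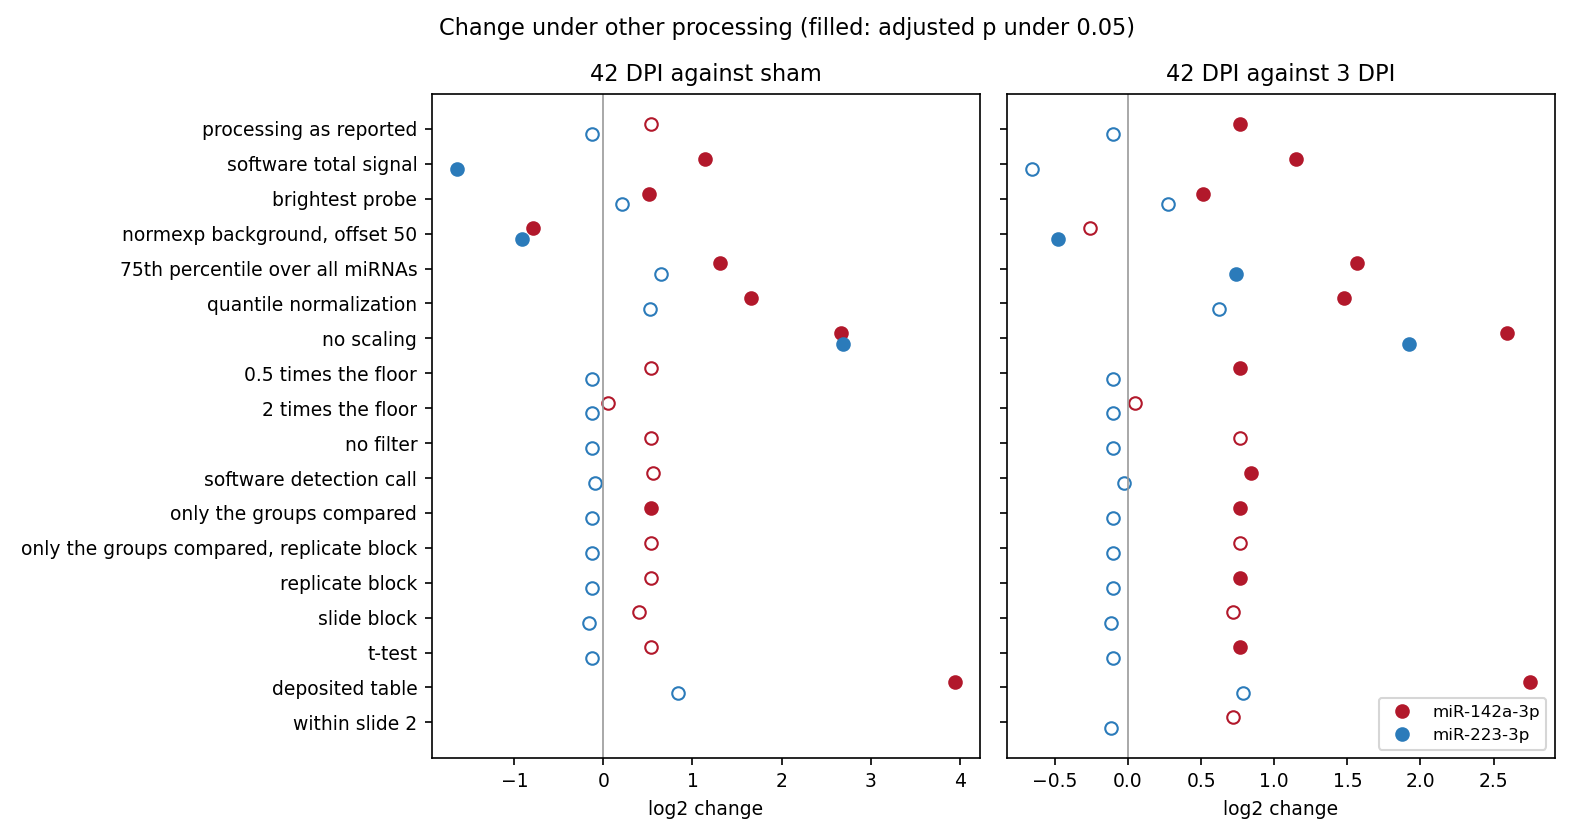
Log2 change of miR-142a-3p (red) and miR-223-3p (blue) at 42 DPI against sham (left) and against 3 DPI (right) under each processing setting, filled where the adjusted p was under 0.05; the horizontal scales of the panels differ, and within slide 2 no comparison with sham exists. Values under no scaling, the percentile over all miRNAs, quantile normalization, and normexp include a shift of all tested miRNAs (2.02, 0.54, 0.36, and -0.86 in the left panel).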

How the data were processed

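The authors deposited 1 scanner file per array (Agilent Feature Extraction 10.7.1.1, per the labels), with a background-subtracted intensity per spot on a linear scale, flags per spot, and no normalization between arrays, and a table of log2 values whose making was not given in the sources used here. It is used as an alternative. Of 58594 spots per array, control spots and spots flagged as outliers were dropped, and a miRNA's signal was the sum, over its probes, of the mean of the kept spots. Signals were scaled by the array's 75th percentile, taken over those 230 miRNAs that were above background on all 12 arrays. A common floor was set at -5.42 on the log2 scale, the median over arrays of the lowest scaled signal above background. Tests covered the 486 miRNAs that were above background throughout at least 1 group, with limma 3.58.1 (R 4.3.3) in 1 fit over 12 arrays, two-sided, with Benjamini-Hochberg adjustment and a threshold of 0.05. The script was tested on simulated data. Where a miRNA was above background on no array of a group, a fold is a bound: the brighter group's mean log2 level against the mean, over the dimmer group's arrays, of the higher of the array's lowest signal above background and the miRNA's own. Such a bound is not a strict minimum, since it leaves out the spread between arrays. A miRNA could also exceed an array's lowest signal above background without being above background, as miR-223-3p did on sham replicates 1 and 2. The number of arrays limits the precision.

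The members and the lists were chosen with earlier results of these data known. The text names the 4 arms, all listed myeloid and inflammatory miRNAs, and those of other lists called against sham. Same-numbered arrays of sham and 14 DPI deviated together (correlations 0.84, 0.44, and 0.74 over miRNAs), and those of the other comparisons with sham did not all do so (-0.73 to 0.57). No stated link ties the numbers. Scanner totals, detection calls, other scalings, floors, filters, blocks, and each array left out were tried as alternatives. On each sham array 2 spots, none of a member, were named differently from the injury arrays, whose names were taken.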

Additional observations from a re-analysis of the deposited data

Results flagged for a closer look

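The change of miR-142a-3p against sham differed between 42 and 3 DPI by 0.76 on the log2 scale (limma adjusted p = 0.032), which is the contrast of the 2 groups themselves because both share the sham arrays. Over its 17 alternative settings other than single arrays left out, the adjusted p was 1.2e-05 to 0.32. The levels at 3 DPI were not above background on any of the 3 arrays, the miRNA was tested only through its 42 DPI arrays, and with no filter the adjusted p was 0.16.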

How the results depend on the processing

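Of 198 values of the 3p arms under alternatives other than single arrays left out (2 miRNAs, 6 comparisons), 145 kept their direction and side of the threshold, 18 became calls, 5 lost the call, and 30 turned sign. The values counted as kept include some of exactly 0 for miR-142a-3p, which have no direction. The alternatives include 5 settings (no scaling, the percentile over all miRNAs, quantile normalization, normexp, and the software's total signal) that moved the median of all tested miRNAs by over 0.1 in some comparisons, so that signs and calls under them hold that common shift. Without these 5, of 138 values 117 kept direction and side (again with some of exactly 0), 5 became calls, 5 lost the call, and 11 turned sign. Apart from what the settings themselves change (fewer or more miRNAs tested, fewer arrays, another floor) the cause was not tested. The 5p arms had no tested value, and the filter on miRNAs above background on all 12 arrays left no member. Values are log2 changes, and a number of called miRNAs is beside 0, 18, and 174 of 486 at 3, 14, and 42 DPI against sham, 6 at 14 against 3 DPI, 202 at 42 against 3 DPI, and 0 at 42 against 14 DPI.

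For miR-142a-3p against sham, the change at 3 DPI was -0.52 with normexp (called), 0.18 with quantile normalization, 0.079 without scaling, and 1.20 in the deposited table (called). At 14 DPI it was -0.79 with normexp (called), 1.08 without scaling (called), 3.20 in the deposited table (called), -0.042 with 0.5 times the floor, -0.026 with the software's detection call, and -0.11 with slide as a block. At 42 DPI it was called as 1.15 with the software's total signal, 0.51 with the brightest probe, 1.31 with the percentile over all miRNAs, 1.66 with quantile normalization, 2.67 without scaling, 0.53 in a fit of only the 2 groups, and 3.94 in the deposited table, and it was -0.79 with normexp (called).

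Between time points, miR-142a-3p at 14 against 3 DPI was -0.26 with normexp and 2.00 in the deposited table (called), and at 42 against 14 DPI 1.59 without scaling (called). At 42 against 3 DPI it was -0.26 with normexp, and it lost its call with 2 times the floor (0.049), with no filter (0.76), with slide as a block (0.72), within slide 2 (0.72), and with a replicate block in a fit limited to both groups (0.76, adjusted p = 0.062). The replicate block in the fit over 12 arrays changed no call of a 3p arm, and it left 4 miRNAs called at 14 DPI against sham.

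For miR-223-3p against sham, the change at 3 DPI was -0.44 with normexp (called), 0.77 without scaling, and 0.046 in the deposited table. At 14 DPI it was -0.85 with normexp (called), 0.041 with the percentile over all miRNAs, 1.48 without scaling (called), and 0.14 in the deposited table. At 42 DPI it was -1.65 with the total signal (called), -0.91 with normexp (called), 0.21 with the brightest probe, 0.65 with the percentile over all miRNAs, 0.52 with quantile normalization, 2.69 without scaling (called), and 0.83 in the deposited table. At 14 against 3 DPI it was 0.14 with the percentile over all miRNAs, 0.083 with quantile normalization, 0.71 without scaling, and 0.094 in the deposited table. At 42 against 3 DPI it was 0.27 with the brightest probe, -0.48 with normexp (called), 0.74 with the percentile over all miRNAs (called), 0.62 with quantile normalization, 1.92 without scaling (called), and 0.79 in the deposited table. At 42 against 14 DPI it was -0.061 with normexp and 1.21 without scaling (called).

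Leaving out each array in turn gave, for miR-142a-3p at 3, 14, and 42 DPI against sham, -0.38 to -0.13, -0.19 to 0.24, and 0.39 to 0.66, and at 14 against 3, 42 against 3, and 42 against 14 DPI, 0.045 to 0.47, 0.68 to 0.81, and 0.27 to 0.72. The change at 42 DPI against sham became a call without 14 DPI replicate 1 or replicate 3 (adjusted p = 0.035 and 0.034), which alter only the shared spread, the miRNAs tested, and the scaling set. For miR-223-3p the same 6 ranges were -0.10 to 0.091, -0.34 to -0.17, -0.22 to 0.0090, -0.29 to -0.15, -0.20 to -0.051, and 0.023 to 0.21, with no call.

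Numbers of called miRNAs in the 6 comparisons, in the order given above, were 178, 377, 433, 74, 337, and 1 with normexp, 0, 348, 418, 15, 308, and 170 without scaling, and 195, 238, 353, 183, 373, and 40 of 684 in the deposited table. At 42 DPI against sham, 70 were higher and 104 lower, against 418 and 0 without scaling, 170 and 74 with the percentile over all miRNAs, 149 and 87 with quantile normalization, and 44 and 389 with normexp, which moved the median of all tested miRNAs by 2.02, 0.54, 0.36, and -0.86. Quantile normalization called 1 at 3 DPI and 28 at 14 DPI against sham and 1 at 42 against 14 DPI. At 14 DPI against sham, 1 was called with no filter, 8 with those above background on all arrays, 36 with the software's call, and 0 with only the 2 groups, with or without a replicate block, with slide as a block, or by the methods' t-test. Calls by the t-test are after adjustment. At 42 DPI against sham, 113 were called with 2 times the floor, 53 with no filter, 282 with only the 2 groups, and 0 with slide as a block. At 14 against 3 DPI, 10 were called with 0.5 times the floor, 2 with no filter, 23 with the software's call, 3 with slide as a block, and 0 with only the 2 groups, with or without a replicate block, by the t-test, or within slide 2. At 42 against 3 DPI, 129 were called with the brightest probe, 123 with 2 times the floor, 0 with no filter, 118 with those above background on all arrays, 114 with slide as a block, 57 within slide 2, and 0 with only the 2 groups and a replicate block. At 42 against 14 DPI, 1 was called with 0.5 times the floor and 1 with the percentile over all miRNAs. Leaving out single arrays gave 0 to 1, 1 to 167, 77 to 254, 3 to 152, 0 to 270, and 0 to 1.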

Other observations

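No member was above background on all 12 arrays, which the rule for naming miRNAs of similar course required, so the nearest were taken for the 3p arms among all tested miRNAs, a choice made after the values were seen. By the root mean square difference of centered log2 levels over 12 arrays, the nearest to miR-142a-3p were miR-376a-5p (0.17), miR-341-3p (0.19), and miR-140-5p (0.21), beside a median of 0.53 over 484 miRNAs. The nearest to miR-223-3p were miR-324-3p (0.13), miR-365-3p (0.14), and miR-423-5p (0.16), beside a median of 0.53. These are descriptions over arrays that share scaling and floor. Of the 6 miRNAs, miR-341-3p and miR-140-5p were above background on all 3 sham arrays, miR-423-5p on 1, and the others on 0.

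The deposited table gave miR-142a-3p larger differences than the scanner signals did. Its log2 values were -1.03, -0.18, and -0.61 for the sham arrays, 0.58, 0.60, and 0.59 at 3 DPI, 2.59, 2.25, and 2.92 at 14 DPI, and 3.22, 3.46, and 3.32 at 42 DPI. The scanner software's total signal for miR-142a-3p was 0.1, the value it gave to undetected miRNAs, on all 3 sham arrays. In sham, 3 DPI, and 14 DPI, 1 of the 3 values of miR-142a-3p equaled the mean of the other 2 within 1e-05. Over the table, 10 to 141 rows per array had this property, and 1 to 329 miRNAs per array that the software had not detected held a value above the table's lowest of -3.32. Both 5p arms were at -3.32 in every column.

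The scanner software's total signal for miR-223-3p was 0.598 to 0.902 of the summed intensity of its own probes on the 4 arrays of slide 1 and 0.269 to 0.276 on the 8 arrays of slide 2. Over brighter detected miRNAs the median of this ratio was 0.212 on the arrays of slide 1 and 0.269 to 0.276 on those of slide 2. With the total signal in place of the probes' sum, miR-223-3p differed by -1.65 at 42 DPI against sham on the log2 scale.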
